A study of Mus musculus with 65 samples.

Results

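HORMAD1 peaks of mouse spermatocytes that lack PRDM9 were set against HORMAD1 peaks of wild-type spermatocytes. The wild-type list held 1715 peaks and the Prdm9KO list 1009, which together are 2724 of the 97260 regions in the 24 lists given for the series. A wild-type peak was called shared where it overlapped a Prdm9KO peak by at least 1 bp, and otherwise wild type only. A Prdm9KO peak was called shared or Prdm9KO only in the same way. This gave 623 shared and 1092 wild-type-only intervals in the wild-type list, and 612 shared and 397 Prdm9KO-only intervals in the Prdm9KO list.

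The series maps proteins of meiotic recombination by ChIP-seq (chromatin immunoprecipitation and sequencing) in testes, with 65 samples in 36 groups. The labels name C57BL/6JCrl for all groups used here. They give the Prdm9KO genotype as B6;129P2-Prdm9tm1Ymat/J, a stock name with a second strain in it, so any difference in background and the loss of Prdm9 cannot be told apart. HORMAD1 lists of Spo11KO (Spo11tm1Mjn), Mei4KO (Mei4tm1Bdm) and Iho1KO (Iho1tm1.2Atot) mice were also used. Male pups of every genotype, starting 1.5 days after birth, were fed a blocker of retinoic acid (written WIN 18,466 in the labels) for 7 to 10 days. They were then injected once with retinoic acid, and their testes were taken 8 days later, when 80 to 95% of the cells were in the leptotene and zygotene stages of meiosis. The tissue was fixed for 15 minutes in 4% formaldehyde. The chromatin came from whole testes, so other cell types are also present. Peak lists give no measure of expression, and no value used here checks the genotype or the stage. Each HORMAD1 group has 2 samples in the labels and 1 deposited peak list, and whether the list pools both is not stated in the sources used here. No difference below therefore has a replicate check, and no p-value was computed. Shares of peaks carry Wilson 95% intervals and differences of shares Newcombe 95% intervals, which count each peak as independent and hold no error but that of counting. A difference was called where its interval excluded 0.

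HORMAD1 is a HORMA-domain protein that coats the axes of unsynapsed meiotic chromosomes, the protein cores from which chromatin loops project. SYCP3 is a structural protein of the same axes, IHO1 binds HORMAD1, and MEI4 works with IHO1 in making the DNA breaks that start recombination. SPO11 is the enzyme that cuts. PRDM9 is a zinc-finger histone methyltransferase that binds specific DNA motifs and so places the breaks at hotspots. DMC1, a recombinase, binds single-stranded DNA where breaks have formed, and DMC1 ChIP-seq therefore maps hotspots. In Prdm9 mutant mice breaks still form, but at other sites that carry the histone mark H3K4me3, among them promoters. CTCF is a zinc-finger DNA-binding protein that anchors chromatin loops together with cohesin. The hotspots (13808 wild-type DMC1 peaks) and the CTCF sites (32676 peaks) used below come from wild-type testes, so the state of these sites in Prdm9KO was not measured by them.

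CTCF is the sequence-specific factor whose sites most of the shared peaks occupied, and its motif can be shown in the promoters that the peaks covered. The promoters below, each running from 250 bases before to 50 bases after a gene's start, were taken from RefSeq (GRCm38.p6) and are printed 5′ to 3′ on the gene's strand. The capitals mark a match, on either strand, to the core of the CTCF motif: CCA, any 2 bases, AG, any 2 bases, GGC. The first pair lay under shared HORMAD1 peaks, the next under a Prdm9KO-only peak, and the last under a wild-type-only peak.
Gm30470: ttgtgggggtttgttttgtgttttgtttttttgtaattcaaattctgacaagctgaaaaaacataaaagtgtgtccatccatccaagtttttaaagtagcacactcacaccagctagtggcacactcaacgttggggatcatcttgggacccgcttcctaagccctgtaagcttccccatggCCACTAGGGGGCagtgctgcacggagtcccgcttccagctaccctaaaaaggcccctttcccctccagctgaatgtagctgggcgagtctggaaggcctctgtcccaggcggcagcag
Gm33330: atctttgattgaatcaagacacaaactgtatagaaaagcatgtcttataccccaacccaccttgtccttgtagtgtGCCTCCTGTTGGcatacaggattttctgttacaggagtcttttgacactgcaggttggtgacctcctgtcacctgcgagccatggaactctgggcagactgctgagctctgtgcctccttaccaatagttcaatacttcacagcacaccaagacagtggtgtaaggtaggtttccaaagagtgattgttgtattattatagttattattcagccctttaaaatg
Slx1b: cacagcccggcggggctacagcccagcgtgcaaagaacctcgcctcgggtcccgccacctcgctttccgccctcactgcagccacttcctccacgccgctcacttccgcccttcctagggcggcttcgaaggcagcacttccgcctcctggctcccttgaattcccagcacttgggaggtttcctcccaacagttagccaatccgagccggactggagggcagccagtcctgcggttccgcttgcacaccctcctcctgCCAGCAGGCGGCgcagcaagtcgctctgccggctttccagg
C1qbp: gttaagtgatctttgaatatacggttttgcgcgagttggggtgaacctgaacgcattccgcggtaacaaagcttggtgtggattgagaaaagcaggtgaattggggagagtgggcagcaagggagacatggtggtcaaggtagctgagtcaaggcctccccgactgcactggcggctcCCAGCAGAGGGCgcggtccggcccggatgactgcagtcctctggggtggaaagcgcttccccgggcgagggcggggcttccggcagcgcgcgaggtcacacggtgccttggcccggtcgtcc

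The Gm30470 promoter (chr11:79224435-79224734, plus strand) held its match 68 bases before the gene's start. It lay under a wild-type HORMAD1 peak of 947 bp and a CTCF peak with a deposited score of 4.95. The Gm33330 promoter (chr16:30253175-30253474, minus strand) held its match 174 bases before the start. The HORMAD1 peak over it was 4182 bp wide and the CTCF score was 7.61. Slx1b encodes a copy of the catalytic subunit of the SLX1-SLX4 nuclease, which cuts branched DNA. Its promoter (chr7:126695734-126696033, minus strand) held the match 10 bases after the start, under a CTCF peak with a score of 5.95 and a Prdm9KO-only HORMAD1 peak of 2757 bp. The C1qbp promoter (chr11:70982977-70983276, minus strand) also held a match, 72 bases before the start, but no CTCF peak. The wild-type-only HORMAD1 peak over it spanned 6065 bp and met no hotspot. C1qbp encodes a mostly mitochondrial protein.

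Over all 32851 promoters in the table, 2.43% held the core, and 5.83% of the 4270 promoters at a CTCF peak did. The core was found in 9 of 76 promoters under shared peaks (11.8%), in 4 of 158 under wild-type-only peaks (2.53%) and in 3 of 77 under Prdm9KO-only peaks (3.90%). A looser form, which lets the third base vary and so takes in every core match, was found in 8.61% of all promoters. Its shares were 21.1% under shared, 12.0% under wild-type-only and 20.8% under Prdm9KO-only peaks. Of these promoters 42.1%, 26.6% and 44.2% lay at a CTCF peak; of all promoters, 4270 of 32851 did. A letter match describes the sequence only, and promoters hold a small part of the peaks.

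Without PRDM9, 36.3% of wild-type HORMAD1 peaks were found again (623 of 1715, 95% interval 34.1 to 38.6). Of the Prdm9KO peaks, 60.7% were found in the wild type (612 of 1009, 57.6 to 63.6). Where only the wider 50% of each list was kept and the classes were set anew, these shares were 20.0% and 32.9%. A wide peak with a narrow partner then counted as not found. Against the whole other list, 204 of 857 wide wild-type peaks and 315 of 504 wide Prdm9KO peaks were found. A wild-type peak that is missing from the Prdm9KO list may also lie below the threshold there, since the depth of the libraries is unknown and the threshold is not given in the sources used here. Where both lists had a peak, the pairs were compared, although the overlap that defines a pair limits how far apart its centres can lie. Of the shared peaks, 600 pairs matched 1 to 1, with a median distance of 154 bp between their centres (quartiles 58.8 and 357 bp). The Prdm9KO interval was narrower than the wild-type one in 330 pairs and wider in 267, with a median width ratio of 0.976 (quartiles 0.760 and 1.14). Of the 1092 wild-type-only peaks 20 lay within 5 kb of a Prdm9KO peak, and of the 397 Prdm9KO-only peaks 26 lay within 5 kb of a wild-type peak. The number expected from the spacing of the lists was not computed.

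The share found again differed with the kind of site. Wild-type HORMAD1 peaks at a hotspot and at no CTCF peak were found in Prdm9KO in 14 of 635 cases (2.20%, 1.32 to 3.67). Those at both a hotspot and a CTCF peak were found in 22 of 73 (30.1%, 20.8 to 41.4). Those at a CTCF peak alone were found in 400 of 625 (64.0%, 60.2 to 67.7), and those at neither in 187 of 382 (49.0%, 44.0 to 54.0). Read the other way, Prdm9KO peaks at CTCF alone were also found in the wild type in 64.0% of cases (405 of 633).

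**Figure D1:**
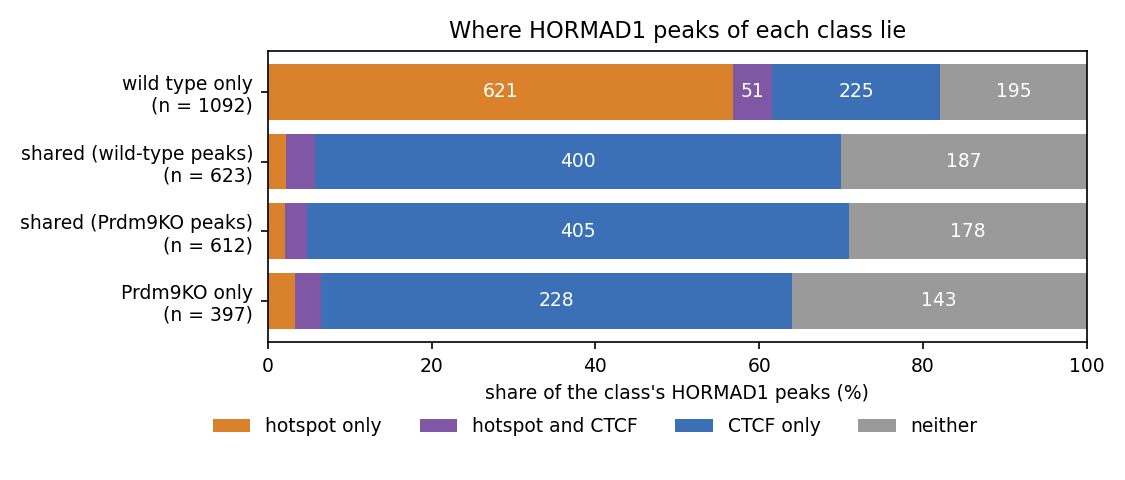
Share of each class of HORMAD1 peaks (horizontal axis, percent) that lay at a wild-type DMC1 hotspot only, at a hotspot and a CTCF peak, at a CTCF peak only or at neither, with the number of peaks written in each larger bar segment. Hotspot segments fill most of the wild-type-only bar (621 and 51 of 1092 peaks) and are small in the other bars, where CTCF-only peaks make the largest segment.

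Hotspots separated the classes most. Of the wild-type-only peaks, 672 of 1092 (61.5%, 58.6 to 64.4) lay at a hotspot, against 36 of 623 shared peaks (5.78%, 4.20 to 7.90). The difference was 55.8 percentage points (52.2 to 59.0). Seen from the hotspots, 649 of 13808 (4.70%) had a wild-type HORMAD1 peak, 53 (0.384%) a Prdm9KO peak and 26 (0.188%) a peak in both lists. Of the 649, 590 had 1 wild-type HORMAD1 peak and 59 had 2 or more, so the peaks at a hotspot are not all independent.

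The hotspots of the wild-type-only peaks were also the strong ones. The highest deposited DMC1 value under a peak had a median of 3393 (quartiles 2310 and 5003) for wild-type-only peaks and of 108 (67.8 and 500) for shared peaks. The median over all hotspots was 129. The unit of this value is not named by the authors, and it is used here only to rank hotspots. Of the wild-type-only hotspot peaks, 641 of 672 (95.4%) lay at hotspots in the top 25% of DMC1 values, against 10 of 36 shared ones (27.8%), a difference of 67.6 points (51.3 to 79.6). The share found again in Prdm9KO was 5 of 15 at the weakest 25% of hotspots, 17 of 25 at the next, and 4 of 17 between the median and the top 25%. It was 3 of 30 between the 75th and 90th percentiles, 7 of 496 (1.41%, 0.685 to 2.88) up to the 99th, and 0 of 125 above it, with a Wilson upper limit of 2.98% (3 counts of 125 are 2.40%). Of the 36 shared hotspot peaks, 22 also lay at a CTCF peak, against 51 of the 672 wild-type-only ones. Among the 14 shared ones at no CTCF peak, 8 lay within 2 Mb of a distal chromosome end. The shares by DMC1 value do not separate these peaks.

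The same contrast showed in the share of hotspots that carried HORMAD1. In the strongest 10% of hotspots, 565 of 1381 (40.9%, 38.3 to 43.5) had a wild-type HORMAD1 peak and 3 (0.217%, 0.0739 to 0.637) a Prdm9KO peak. In the next 10% the counts were 22 and 1. Among hotspots with DMC1 values between 64.5 and 90.5 they were 9 and 11, and between 47.0 and 64.5 they were 8 and 8. Similar small numbers of these weak hotspots thus carried a HORMAD1 peak in each list, which does not show that they were the same hotspots.

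**Figure D2:**
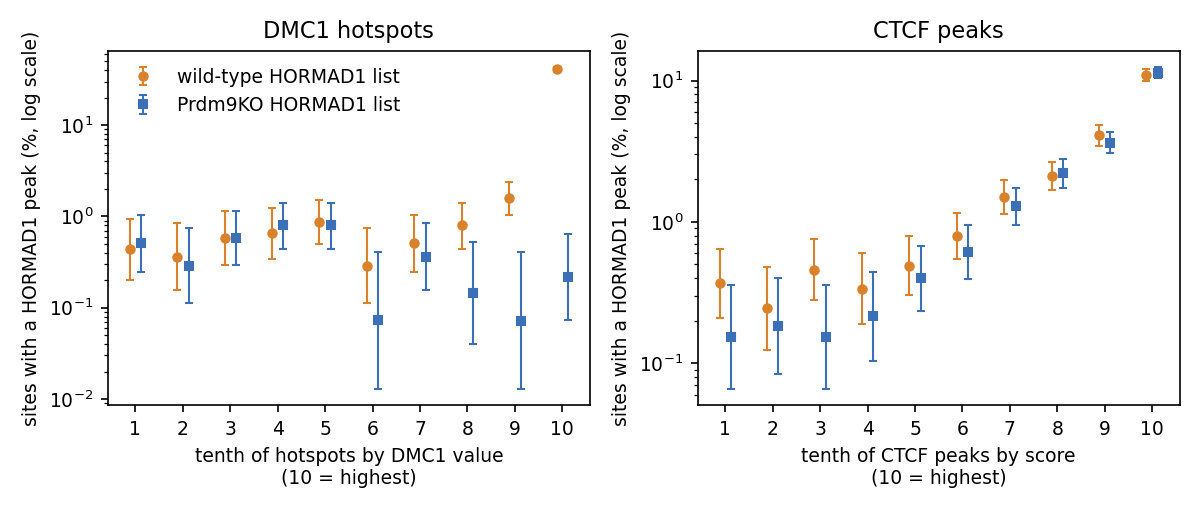
Share of DMC1 hotspots (left) and of CTCF peaks (right) that carried a HORMAD1 peak (vertical axis, percent, log scale) in 10 equal groups of sites ranked by the authors' deposited value, with 10 the strongest. Circles are the wild-type list, squares the Prdm9KO list, and bars Wilson 95% intervals. The lists part at the strongest hotspots (40.9% against 0.217%) and stay together along the CTCF scores (359 against 373 of 3268 sites in the top group).

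The 3 wild-type-only peaks with the highest DMC1 values lay in genes on 3 chromosomes. The peak in Ankfn1 (chr11:89607538-89617339, 9802 bp) covered the hotspot with the highest value of all, 20822. The peak in Dennd1a, which encodes a regulator of Rab GTPases in membrane traffic, had a value of 20514 (chr2:38136859-38141393, 4535 bp). The peak in Erbb4, which encodes a neuregulin receptor, had 18961 (chr1:68485638-68492075, 6438 bp). Each of these sites was also in the wild-type IHO1, SYCP3 and MEI4 lists and in none of the Prdm9KO lists of these proteins. HORMAD1 was also listed in Iho1KO at Ankfn1 and Dennd1a, and in Spo11KO at Dennd1a and Erbb4.

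At several of the strong hotspots counted as shared, the Prdm9KO peak did not reach the hotspot. The shared peak with the highest DMC1 value, 3717, lay in Dusp26, which encodes a protein phosphatase (chr8:31087451-31098911). Its Prdm9KO partner (chr8:31096384-31097728, 1345 bp) lay 3879 bp from the hotspot, and the wild-type peak also held a CTCF peak with a score of 3.48. In Dad1, which encodes a subunit of the oligosaccharyltransferase, the wild-type peak spanned 9671 bp (chr14:54226613-54236283, DMC1 value 3357). The Prdm9KO peak (chr14:54226510-54229594) lay 2655 bp to the side of the hotspot. Of the 10 shared peaks at the top 25% of hotspots, 6 had such a partner beside the hotspot and 4 a partner on it. Of the 26 at weaker hotspots, 4 had a partner beside and 22 a partner on the hotspot. The 33 1-to-1 pairs at hotspots had a median width ratio of 0.700, against 0.979 in the 567 pairs elsewhere.

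Wild-type-only peaks at hotspots were broad. Their median width was 4730 bp (quartiles 2430 and 5949), 393 of the 672 spanned the whole DMC1 hotspot, and the median distance between the centres of peak and hotspot was 536 bp. The 36 shared peaks at hotspots were about as broad, with a median of 4375 bp (quartiles 2989 and 8470). Wild-type-only peaks outside hotspots had a median of 2168 bp, and shared peaks outside hotspots 2067 bp. The share wider than the median of the wild-type list (2641 bp) was 27.1 points lower in shared than in wild-type-only peaks, a difference of -27.1 (-31.6 to -22.3). Outside hotspots it was -9.47 (-15.4 to -3.53), and it was -1.99 and no longer called where an overlap had to cover 50% of the shorter interval. Width is not independent of the classes, since a wider interval meets another more easily.

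**Figure D3:**
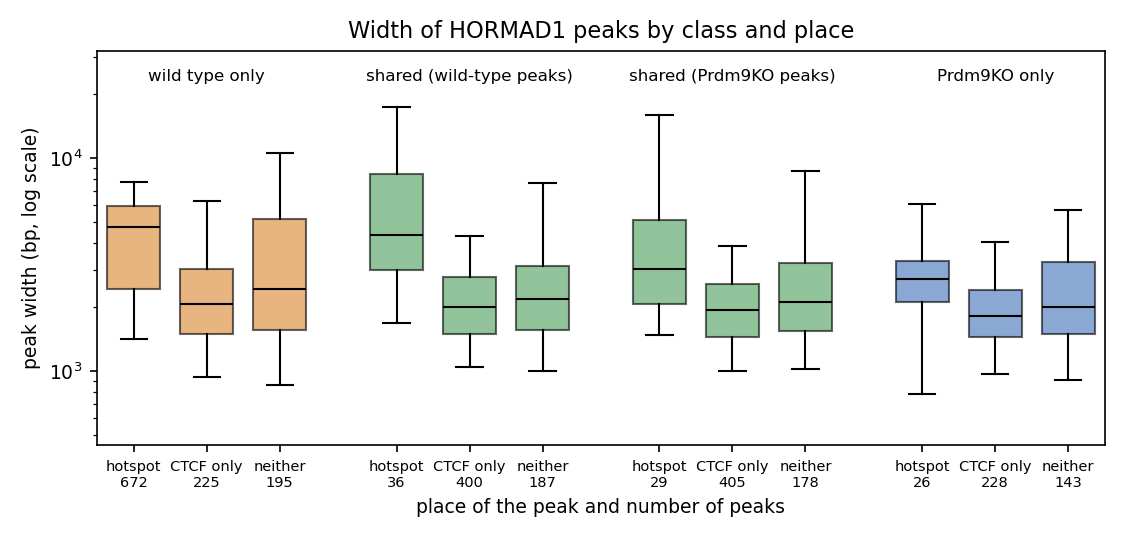
Width of HORMAD1 peaks (vertical axis, bp, log scale) by class and place, with the number of peaks under each box. Boxes give the quartiles with the median as a line, and whiskers the 5th and 95th percentiles. Wild-type-only peaks at hotspots have a median of 4730 bp, while the CTCF-only peaks of every class have medians between 1814 and 2069 bp.

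The wild-type-only hotspot peaks carried the other axis and break proteins in the wild type and hardly any in Prdm9KO. In the wild-type lists, SYCP3 overlapped 571 of the 672 (85.0%, 82.1 to 87.5), IHO1 442 (65.8%, 62.1 to 69.3) and MEI4 421 (62.6%, 58.9 to 66.2). In the Prdm9KO lists, SYCP3 overlapped 12 (1.79%, 1.02 to 3.10), IHO1 2 (0.298%) and MEI4 0, with a Wilson upper limit of 0.568% (3 counts of 672 are 0.446%). The Prdm9KO lists are shorter for each of these proteins, with 607 against 1911 SYCP3 peaks, 378 against 1589 IHO1 peaks and 80 against 1566 MEI4 peaks. Over the whole wild-type HORMAD1 list the shares fell too. They went from 59.5% to 14.2% for SYCP3, from 54.7% to 16.1% for IHO1 and from 28.6% to 2.97% for MEI4. The 672 peaks were also chosen for lacking HORMAD1 in Prdm9KO, so their Prdm9KO shares are not independent of that choice.

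The same 672 sites also differed between the other mutants. HORMAD1 peaks were listed at 325 of them (48.4%, 44.6 to 52.1) in Spo11KO, which lacks the enzyme that cuts. IHO1 and MEI4, missing in the next mutants, also act in making the breaks. In Iho1KO the number was 71 (10.6%, 8.46 to 13.1), and in Mei4KO 28 (4.17%, 2.90 to 5.96). Each share was below that of the whole wild-type HORMAD1 list, which was 65.5% in Spo11KO, 49.6% in Iho1KO and 33.6% in Mei4KO. The Mei4KO list was the longest of these, with 5275 HORMAD1 peaks, against 2897 in Spo11KO and 3149 in Iho1KO.

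Most shared peaks lay at CTCF sites. Of 623 shared peaks, 422 (67.7%, 64.0 to 71.3) overlapped a CTCF peak, against 276 of 1092 wild-type-only peaks (25.3%, 22.8 to 27.9), a difference of 42.5 points (37.8 to 46.8). A part of this goes with the hotspots, so the comparison was repeated outside them. There it was 400 of 587 (68.1%) against 225 of 420 (53.6%), a difference of 14.6 points (8.47 to 20.6). Over all CTCF peaks, 699 (2.14%) had a wild-type HORMAD1 peak, 662 (2.03%) a Prdm9KO peak and 424 (1.30%) a peak in both lists.

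Shared peaks also had the higher CTCF scores. Outside hotspots the highest score under a peak had a median of 4.28 (quartiles 3.42 and 5.21) in shared and of 3.65 (2.72 and 4.51) in wild-type-only peaks, against 1.92 over all CTCF peaks. The top 25% of CTCF scores, from 2.89 up, took in 345 of 400 shared peaks (86.2%) and 162 of 225 wild-type-only peaks (72.0%), a difference of 14.3 points (7.64 to 21.2). The share found again in Prdm9KO was 7 of 22 (31.8%, 16.4 to 52.7) at scores between the 25th percentile and the median and 40 of 81 (49.4%, 38.8 to 60.0) up to the 75th percentile. It was 95 of 161 (59.0%, 51.3 to 66.3) up to the 90th, 197 of 279 (70.6%, 65.0 to 75.6) up to the 99th, and 53 of 67 (79.1%, 67.9 to 87.1) above it. The lowest 25% of scores, with 8 of 15 found again, stood outside this order, with a wide interval (30.1 to 75.2). Shared peaks at CTCF had a median of 242 bp between centres, with 206 of 400 within 250 bp, although the overlap itself limits this distance. For wild-type-only peaks these were 356 bp and 84 of 225.

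The shared peak with the highest CTCF score, 31.4, lay near the distal end of chromosome 9 (chr9:124256317-124257868), 10.0 kb from the predicted gene Gm39469. It was also in the IHO1, SYCP3 and MEI4 lists of both genotypes. The next, on the X chromosome (chrX:75672506-75675706, score 13.5), had IHO1 and SYCP3 but not MEI4 in Prdm9KO. The third lay in the pseudogene Pisd-ps2 (chr17:3083045-3083809, score 13.1), with IHO1, SYCP3 and MEI4 in Prdm9KO. Strong CTCF sites were also found among the peaks of 1 list. A wild-type-only peak of 604 bp at the annotated distal end of chromosome 14 (chr14:124801581-124802184) held the highest CTCF score of all, 37.3, and was in the SYCP3 lists of both genotypes. The next by score, 8.68 (chr13:45030061-45032202), 3.71 kb from Gm23104, was in neither SYCP3 list. A wild-type-only peak in Ccdc110 (chr8:45934348-45937188, score 8.43) was in both.

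Away from hotspots, sites that held IHO1 or SYCP3 in the wild type were found again more often. Over all wild-type peaks this did not hold. There IHO1 overlapped 54.4% of shared and 54.9% of wild-type-only peaks, and SYCP3 50.6% and 64.6%. Outside hotspots, wild-type IHO1 overlapped 317 of 587 shared (54.0%) and 157 of 420 wild-type-only peaks (37.4%), a difference of 16.6 points (10.4 to 22.6). Wild-type SYCP3 overlapped 293 (49.9%) and 134 (31.9%), a difference with a 95% interval of 11.9 to 23.9 points, which fell to 4.93 and was no longer called where an overlap had to cover 50% of the shorter interval. At CTCF peaks, still outside hotspots, HORMAD1 peaks with both IHO1 and SYCP3 were found again in 121 of 146 cases (82.9%, 75.9 to 88.1). Those with IHO1 alone were found in 88 of 136 (64.7%), those with SYCP3 alone in 74 of 107 (69.2%) and those with neither in 117 of 236 (49.6%, 43.3 to 55.9). Away from CTCF the counts were 70 of 114 with both proteins (61.4%, 52.2 to 69.8), 38 of 78 with IHO1 alone (48.7%), 28 of 60 with SYCP3 alone (46.7%) and 51 of 130 with neither (39.2%, 31.3 to 47.8). In both places the share was highest with both proteins and lowest with neither.

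Shared peaks were also present in the other mutants. Of the 623, 560 (89.9%) had a HORMAD1 peak in Spo11KO, 520 (83.5%) in Iho1KO, 341 (54.7%) in Mei4KO and 608 (97.6%, 96.1 to 98.5) in at least 1 of these. Of the 420 wild-type-only peaks outside hotspots, 334 (79.5%, 75.4 to 83.1) were in at least 1 of the lists. For the whole wild-type list this was 1293 of 1715 (75.4%).

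The Prdm9KO-only peaks, like the shared ones, lay mostly at CTCF sites. CTCF peaks overlapped 241 of 397 (60.7%, 55.8 to 65.4), against 421 of 612 shared Prdm9KO peaks (68.8%, 65.0 to 72.3). The difference, shared minus Prdm9KO only, was 8.09 points (2.07 to 14.1). It turned to -3.09 where only the wider 50% of each list was kept and the classes were set anew. Where a Prdm9KO-only peak lay at CTCF outside hotspots, the median distance between centres was 216 bp and the median score 3.78. For shared Prdm9KO peaks there, these were 224 bp and 4.27. The median width of the Prdm9KO-only peaks was 1938 bp, and 2025 bp for shared peaks. The shares above the list's median width differed by 3.86 points (-2.44 to 10.1), which was not called. This difference was 27.8 and called where only the wider 50% of each list was kept, with classes and median set anew. It was -0.897 with 1 kb windows at peak centres.

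Few Prdm9KO-only peaks were at wild-type hotspots. There were 26 of 397 (6.55%, 4.51 to 9.42) against 29 of 612 shared peaks (4.74%, 3.32 to 6.72), and their difference of 1.81 points (-1.04 to 5.02) did not pass. It was 3.43 with an overlap of 50% and 3.68 with 1 kb windows, both called. It was -3.74 with only the wider 50% of each list kept and -0.300 with the stronger 50% of hotspots. The hotspots were mostly weak, with a median DMC1 value of 76.5 and a highest value of 510. Of these 26 peaks, 13 were within 1 kb of the start of a protein-coding gene.

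Prdm9KO-only peaks were more often at starts of protein-coding genes than shared peaks were. Of the 397, 57 (14.4%, 11.2 to 18.1) lay within 1 kb of a start, against 46 of 612 shared peaks (7.52%, 5.68 to 9.88), a difference of 6.84 points (2.94 to 11.1). It fell to 1.84 with only the wider 50% of each list kept and to 3.04 without the 1 kb margin, and was then no longer called. Of all 21263 starts, 129 (0.607%) had a Prdm9KO and 185 (0.870%) a wild-type HORMAD1 peak. Among peaks outside hotspots, 44 of 371 Prdm9KO-only (11.9%, 8.95 to 15.5) and 39 of 583 shared Prdm9KO peaks (6.69%, 4.93 to 9.01) were at starts. In the wild-type list these were 62 of 420 wild-type-only (14.8%, 11.7 to 18.5) and 38 of 587 shared peaks (6.47%, 4.75 to 8.76). Over all wild-type peaks the shares were 9.16% and 7.22%.

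The Prdm9KO-only peaks with the highest CTCF scores lay on 3 chromosomes. The peak beside Pisd-ps2 (chr17:3084716-3085278, score 13.1) was 563 bp wide and lay next to the shared peak named above. Both peaks had this CTCF score and a DMC1 value of 55.5, so they may meet the same CTCF peak and hotspot. The next lay in Ap5s1, which encodes a subunit of the adaptor complex AP-5 (chr2:131209157-131211129, score 11.5). It was in the Mei4KO and Iho1KO HORMAD1 lists. The third lay 18.6 kb from Mki67, the gene of the proliferation marker Ki-67 (chr7:135735058-135736661, score 9.80), and was in the HORMAD1 lists of all 3 other mutants.

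Most Prdm9KO-only peaks were found in another mutant. Of the 397, 347 (87.4%, 83.8 to 90.3) overlapped a HORMAD1 peak of Spo11KO (267), Iho1KO (264) or Mei4KO (211). There were 133 in all 3 of these lists, 129 in 2, 85 in 1 and 50 in none. Shared Prdm9KO peaks were found in 598 of 612 cases (97.7%, 96.2 to 98.6). So 397 peaks were absent from the wild-type list, but 50 of the 1009 Prdm9KO peaks were absent from all 4 other HORMAD1 lists.

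In Prdm9KO itself, the shared sites held more of the other proteins than the Prdm9KO-only sites. IHO1 overlapped 217 of 612 shared peaks (35.5%, 31.8 to 39.3) and 58 of 397 Prdm9KO-only peaks (14.6%, 11.5 to 18.4), a difference of 20.8 points (15.5 to 25.8). SYCP3 overlapped 162 (26.5%, 23.1 to 30.1) and 55 (13.9%, 10.8 to 17.6), a difference of 12.6 points (7.60 to 17.4). The Prdm9KO SYCP3 group has 1 sample in the labels. MEI4 overlapped 43 (7.03%) and 12 (3.02%). Read from the other proteins, 269 of 378 Prdm9KO IHO1 peaks (71.2%), 63 of 80 MEI4 peaks (78.8%) and 213 of 607 SYCP3 peaks (35.1%) lay at a Prdm9KO HORMAD1 peak.

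**Figure D4:**
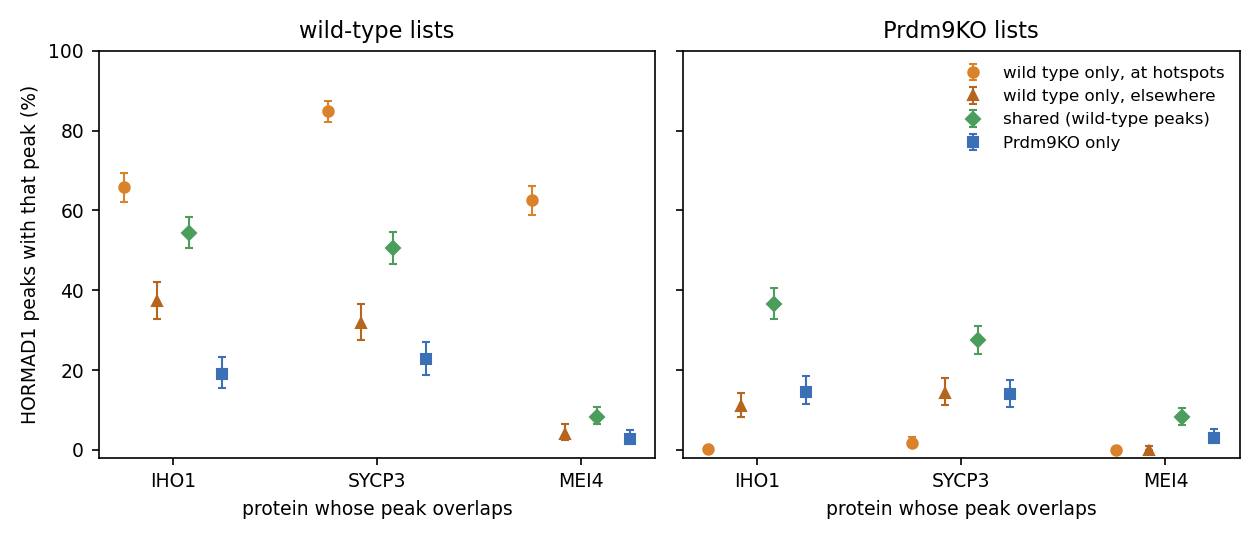
Share of HORMAD1 peaks in 4 classes (vertical axis, percent) that overlapped an IHO1, SYCP3 or MEI4 peak of the wild-type lists (left) or the Prdm9KO lists (right), with Wilson 95% intervals. Wild-type-only peaks at hotspots fall from 85.0% to 1.79% for SYCP3 between the panels, and shared peaks overlap IHO1 in 54.4% of cases in the wild-type list and in 36.6% in the Prdm9KO list.

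Nearly all of the overlap of HORMAD1 with MEI4 in Prdm9KO, and a smaller part of that with IHO1 and SYCP3, lay at a few chromosome ends. The distal ends of chromosomes 4, 9, 13, X and Y are known to gather axis and break proteins at arrays of the mo-2 minisatellite. X and Y share the pseudoautosomal region there, so their counts below may not be independent. These ends were singled out after the values were seen, so their counts are a description with no test. Within 2 Mb of these ends the wild-type list held 81 peaks, of which 68 were shared, and the Prdm9KO list 86, of which 58 were shared and 28 Prdm9KO only. Chromosome 9 alone had 46 wild-type and 49 Prdm9KO peaks. The corresponding ends of all other chromosomes together held 21 and 11.

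At these ends, 52 of the 58 shared Prdm9KO peaks had IHO1, 53 SYCP3 and 42 MEI4. Elsewhere, IHO1 overlapped 165 of 554 (29.8%), SYCP3 109 (19.7%) and MEI4 1 (0.181%). For Prdm9KO-only peaks the counts were 18, 15 and 11 of 28 at the ends. Elsewhere they were 40, 40 and 1 of 369. The ends were not alike. MEI4 overlapped 35 of 49 Prdm9KO peaks at the end of chromosome 9, 6 of 10 on X and 9 of 9 on Y. On chromosome 4 it overlapped 3 of 10, and on 13 it overlapped 0 of 8. IHO1 overlapped 45 on chromosome 9, 10 on X, 8 on Y, 4 on 4 and 3 on 13. Of the 80 MEI4 peaks in Prdm9KO, 70 lay at these ends, and 61 of these overlapped HORMAD1. Without the ends the difference in IHO1 between shared and Prdm9KO-only peaks was 18.9 points and that in SYCP3 8.83, both still called.

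HORMAD1 peaks with all of IHO1, SYCP3 and MEI4 in Prdm9KO numbered 48, with 41 shared and 7 Prdm9KO only. There were 31 on chromosome 9, 7 on Y, 6 on X, 2 on 4 and 2 on 17. CTCF overlapped 17 of the 48, of which 3 were on chromosome 9. The widest was the widest of the whole Prdm9KO list, at 36754 bp (chr9:123923152-123959905), across the predicted gene Gm51701. It held a hotspot with a DMC1 value of 229, and the wild-type peak there was 20227 bp wide. Among the Prdm9KO-only peaks with all 3 proteins, one lay in Asmt, the pseudoautosomal gene of the last enzyme of melatonin synthesis (chrX:170672791-170677711, 4921 bp). It had IHO1 and MEI4 in the wild type too. At the chromosome 9 end the median width was 4500 bp in Prdm9KO and 3002 bp in the wild type. The 34 shared Prdm9KO intervals there overlapped 44 wild-type intervals.

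**Figure D5:**
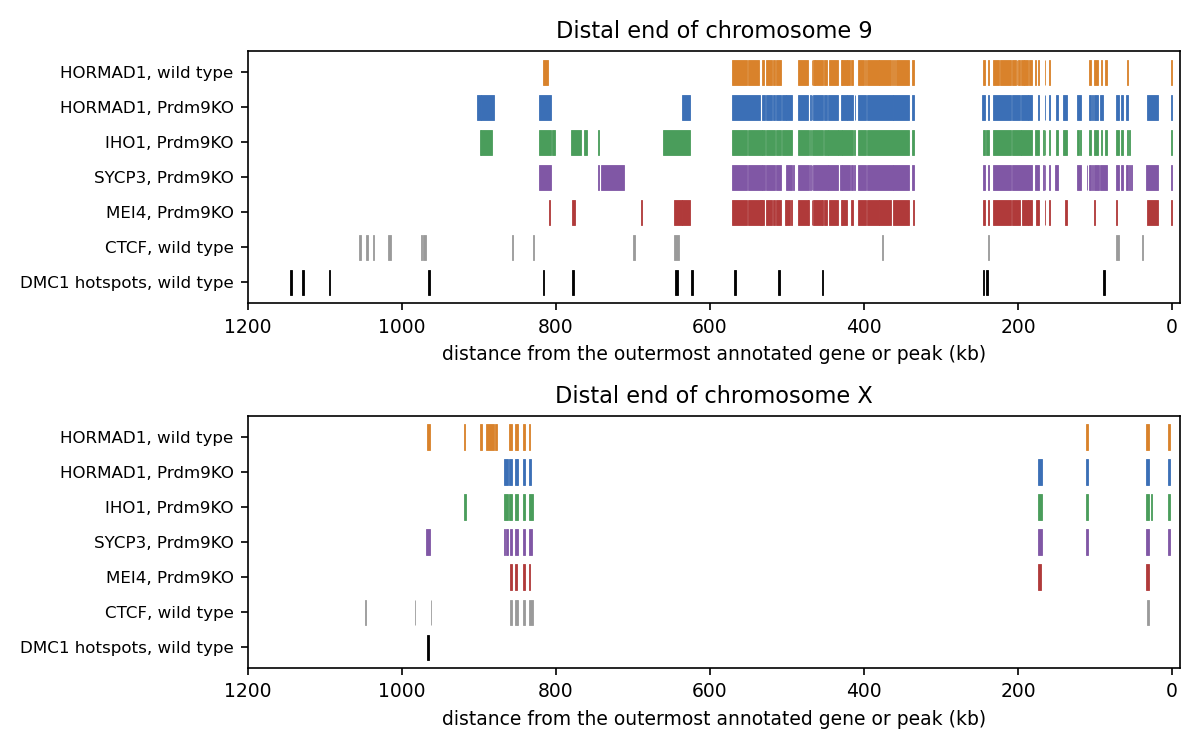
Peaks of 7 lists along the distal ends of chromosomes 9 (top) and X (bottom), drawn to scale against the distance from the outermost annotated gene or peak (horizontal axis, kb). On chromosome 9 the HORMAD1 peaks of both genotypes and the IHO1, SYCP3 and MEI4 peaks of Prdm9KO lie in the same stretches, with few CTCF peaks and hotspots among them.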

How the data were processed

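Of the 24 peak lists given, 13 were used: HORMAD1, IHO1, SYCP3 and MEI4 in the wild type and Prdm9KO, HORMAD1 in Spo11KO, Mei4KO and Iho1KO, and wild-type CTCF and DMC1. The submitters' processing notes name Bowtie2, MACS2 and mm10, without versions, roles or thresholds. The design text says that the authors subtracted from each protein's data those of its own knockout. The authors deposited peak positions, a score per CTCF peak (192 of 32676 are below 0) and a signal value per DMC1 hotspot of unnamed unit. Depth is unknown.

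Overlaps needed 1 bp. Gene starts, 21263 of protein-coding genes, came from the RefSeq promoter table (GRCm38.p6, the same build), widened by 1 kb. The gene table supplied names. All 48 names of a list of meiosis genes matched, to 46 genes. Intervals were computed in Python 3.11.15 and checked on simulated data. Sites named are the 3 with the highest value or width per class, of which some are not reported here. Peak classes, lists and sites were chosen with earlier results of these data known. Alternatives were a 50% overlap, a 1 kb window at peak centres, autosomes only, the wider 50% of each list, the stronger 50% of sites, peaks with at most 1 partner, peaks outside hotspots or at CTCF, other gene-start rules and, added after seeing the data, no chromosome ends. For the wider 50%, the narrower peaks were dropped from the wild-type and Prdm9KO HORMAD1 lists before the classes were set.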

Additional observations from a re-analysis of the deposited data

How the results depend on the processing

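No paired analysis was possible because each group has 1 peak list and no test compared samples, so no replicate could be left out either. Over 115 alternative values, 98 kept their direction and their side of 0 or stayed within their interval. Of the 13 called differences, 9 did so under every alternative run. The share of wild-type peaks found in Prdm9KO was 33.8% with 1 kb windows, 20.0% in the wider 50% of each list and 34.0% without the chromosome ends. That of Prdm9KO peaks found in the wild type was 57.4% with 1 kb windows and 32.9% in the wider 50%. With a 50% overlap, outside hotspots, the difference in wide peaks was -1.99 and that in SYCP3 4.93, neither called. In the wider 50% the CTCF difference between shared and Prdm9KO-only peaks was -3.09. The gene-start difference was 1.84 there and 3.04 without the margin, neither called. The hotspot difference, Prdm9KO only minus shared, was 3.43 with a 50% overlap and 3.68 with 1 kb windows, both called, and -3.74 in the wider 50% and -0.300 with the stronger hotspots. The difference in wide peaks, shared minus Prdm9KO only, was -0.897 with 1 kb windows and 27.8, called, in the wider 50%. Prdm9KO-only peaks were found in another mutant in 82.6% of cases with 1 kb windows. The cause of these changes was not tested. Unknown depth and thresholds limit every count of absent peaks.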

Other observations

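Of 46 genes of meiosis, 3 had a wild-type peak and 2 a Prdm9KO peak in the gene or within 1 kb. The share of all genes with a peak by this rule was not counted, so no excess or lack can be read from these counts. Rec114, which encodes a partner of MEI4, had a shared peak at a CTCF site with a score of 2.42, 3082 bp wide in the wild type (chr9:58773633-58776714) and 1628 bp in Prdm9KO (chr9:58774944-58776571). Gm960, which encodes the SPO11 partner TOPOVIBL, lay under the widest wild-type-only peak (chr19:4616959-4634780, 17822 bp), together with Pcx and Rce1. Ctcf itself had a wild-type-only peak of 7940 bp, at neither a hotspot nor a CTCF peak. Bhmg1, also named Meiosin, which encodes a transcription factor of meiotic entry, had a Prdm9KO-only peak of 2227 bp at its start (chr7:19095052-19097278).

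The widest Prdm9KO-only peaks were at distal chromosome ends. The peak of 32279 bp on chromosome 4 (chr4:156202136-156234414) spanned Klhl17, Plekhn1 and Perm1 and had none of IHO1, SYCP3 or MEI4 in Prdm9KO. The peak of 26890 bp on chromosome 13 (chr13:119457581-119484470), across Paip1, also had none of them. The third, of 17333 bp (chr13:119747856-119765188), across Nim1k and Zfp131, had IHO1.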
